A study of [Candida] boidinii with 12 samples.

Results

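LA001-14 is an L-lactic acid-producing strain of the methylotrophic yeast Candida boidinii, and its messenger RNA was compared between methanol and glucose. The comparison rests on 6 of the 12 libraries in the series: 3 of LA001-14 grown in YPM medium with 2% (w/v) methanol and 3 of LA001-14 grown in YPD medium with 2% (w/v) glucose, all sampled at 6 h. Per the labels, LA001-14 carries an LDH expression cassette written PENO1-BtL-LDH-TTEF2 and a KanR cassette written PTDH3-KanR-TTEF2, both placed at random chromosomal loci of the wild-type background CICC#33029. Both insertions are thus on either side of the comparison; LDH was checked in the counts, and KanR was not analysed here. The labels do not say whether LA001-14 is 1 clone, and YPD and YPM by the usual recipe also contain yeast extract and peptone. The remaining 6 libraries are the wild-type strain in the same media at the same time, 3 per medium, and they entered the fit and a test of whether the methanol response differs between strains.

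Methylotrophic yeasts oxidise methanol to formaldehyde with alcohol oxidase inside peroxisomes. Formaldehyde is then either fixed onto a sugar phosphate by dihydroxyacetone synthase or oxidised through formate to carbon dioxide. In C. boidinii the genes of this pathway are known to be repressed by glucose and induced by methanol. The files list genes by CB identifiers without names, so which rows encode these enzymes, or glycolytic and ribosomal genes, was not assigned here, and genes are described by identifier, coding length, level and response. The only row with a name is LDH, the introduced lactate dehydrogenase, which converts pyruvate to lactate.

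Total counts were between 8045977 and 10350083 in the 3 glucose libraries and between 8346000 and 14107813 in the 3 methanol libraries. Pairwise correlations of log2 CPM between replicates were 0.9855 to 0.9914 on glucose and 0.9912 to 0.9916 on methanol. Counts of paired replicates differed beyond counting noise, with a chi-square per degree of freedom of 4.03 to 13.3. Whether the replicates, which the labels call biological, were grown as separate cultures is not stated, so the p-values reflect library-to-library spread, which may be partly technical. LDH, checked in every library, had 16132 to 76402 reads in the 6 LA001-14 libraries, no read in 5 wild-type libraries and 1 read in the sixth.

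Most genes of LA001-14 differed in level between the methanol and the glucose medium, mostly by less than 2-fold. The media differ in both methanol and glucose, so the presence of methanol and the absence of glucose cannot be told apart. Of the 5466 genes tested, 3523 (64.5%) were called, with 1899 (34.7%) higher and 1624 (29.7%) lower on methanol (edgeR quasi-likelihood test, Benjamini-Hochberg adjusted p under 0.05). The median absolute log2 change over all tested genes was 0.465, with quartiles at 0.216 and 0.844, against a median standard error of 0.11. Among the called genes, 884 rose and 547 fell by less than 1.5-fold, and 636 rose and 457 fell by 1.5-fold to 2-fold. The larger changes leaned to lower levels: at a minimum of 2-fold there were 379 raised genes (6.93%) and 620 lowered ones (11.3%), at 4-fold 86 raised and 129 lowered, and at 8-fold 37 raised and 60 lowered. When the test itself asked for a change beyond 1.5-fold (edgeR glmTreat), 600 genes (11.0%) were higher and 717 (13.1%) lower. The surplus of genes called higher was not kept under other scalings: 1737 were higher and 1742 lower by RLE and 1643 and 1729 by library totals, while the median change of all genes went from 0.048 to -0.0031 and -0.013 on the log2 scale.

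**Figure D1:**
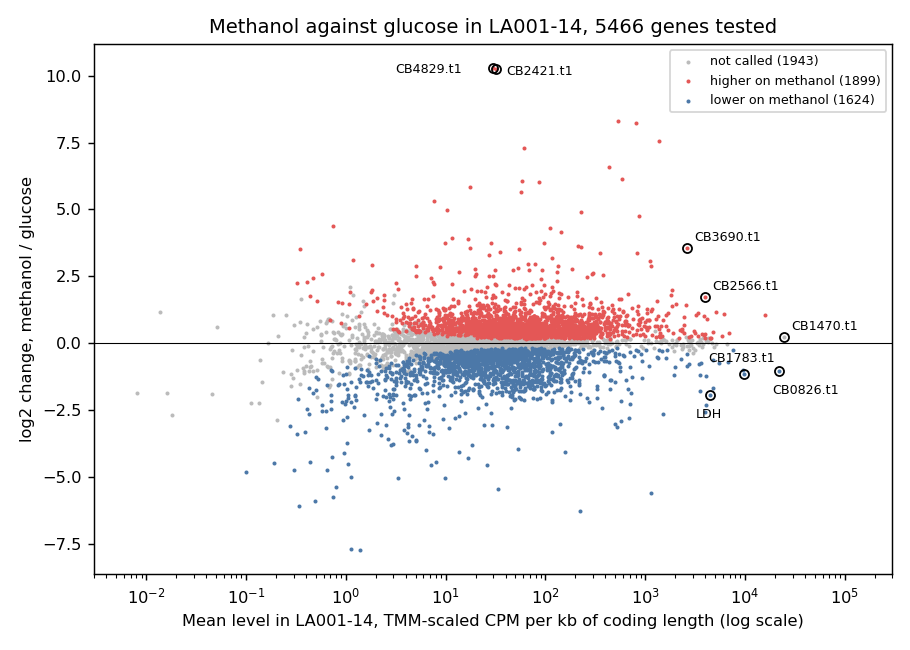
Log2 change between methanol and glucose in LA001-14 (vertical) against mean level over both carbon sources, in TMM-scaled CPM per kb of coding length on a log axis (horizontal), with 1 point per tested gene. Red points are the 1899 genes called higher on methanol, blue points the 1624 called lower and grey points the 1943 not called, and circles mark genes named in the text.

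Replicates of the 2 carbon sources did not overlap for most called genes. This held for 1813 of the 1899 genes called higher and for 1555 of the 1624 called lower. Over all tested genes, 2001 (36.6%) had every methanol library above every glucose library and 1716 (31.4%) the reverse. Of the 1943 genes not called, 40 had a fitted change of at least 2-fold, and these were rare transcripts with a median of 4.58 and a highest value of 19.2 reads per LA001-14 library. A further 62 rows had no read in any LA001-14 library.

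The direction of change differed with the level of the gene, when the tested genes were split into 4 classes of equal size. In the highest class (at least 80.5 CPM per kb), 736 of 1367 rose (53.8%) and 332 fell (24.3%), with a median log2 change of 0.27. In the lowest class (13.5 CPM per kb or less), 233 of 1367 rose (17.0%) and 411 fell (30.1%), and the median was -0.17. The middle classes had medians of -0.01 and 0.08, which lie within or near the shift that another scaling makes. Changes of at least 2-fold showed the same contrast, with 152 higher and 127 lower in the highest class and 78 higher and 239 lower in the lowest. The median standard error was 0.0777 in the highest class and 0.223 in the lowest, so small changes were more readily called among abundant genes. In a like split by coding length, the shortest class (156 to 897 bases) had 528 of 1371 genes higher (38.5%) and 285 lower (20.8%), with a median of 0.16, while medians of the longer classes were 0.03, -0.04 and 0.03. These classes are descriptions, and level and length were not separated from each other.

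LDH had one of the largest losses of reads on methanol. It stood at 7159, 6579 and 7307 CPM in the glucose libraries and at 1999, 1746 and 1793 CPM in the methanol libraries. Each glucose library was more than 3-fold above each methanol library. LDH was 3.80-fold lower on methanol, with a log2 change of -1.93 (SE 0.076, edgeR adjusted p = 2.02e-14). Corrected for coding length (999 bases), its level went from 7022 to 1848 CPM per kb, which moved it from rank 9 to rank 103 among all rows. The authors' FPKM values had means of 7822 ± 523 and 1970 ± 77.1 (SD, n = 3 each).

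The 2 native genes that gained the most reads were CB2566.t1 and CB3690.t1. CB2566.t1 (coding length 1647 bases) stood at 3219, 2891 and 3134 CPM on glucose and at 10513, 9956 and 9893 CPM on methanol. The methanol libraries lay close together and far above the glucose libraries. It rose 3.28-fold, a log2 change of 1.72 (SE 0.054, edgeR adjusted p = 4.71e-14), and climbed from rank 96 to rank 11 by level per kb. CB3690.t1 (1566 bases) stood at 667, 615 and 644 CPM on glucose and at 8223, 7258 and 7202 CPM on methanol. Its 11.8-fold rise was the steeper of the pair, with a log2 change of 3.56 (SE 0.071, adjusted p = 2.11e-18), and its rank by level per kb went from 277 to 19.

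The 2 native genes that lost the most reads, CB0826.t1 and CB1783.t1, stayed among the most abundant transcripts on both carbon sources. CB0826.t1 (1002 bases) stood at 32829, 29509 and 26416 CPM on glucose and at 16100, 13003 and 14491 CPM on methanol. The replicates spread widely within each medium, and the groups did not overlap. It fell 2.04-fold, a log2 change of -1.03 (SE 0.13, edgeR adjusted p = 6.27e-08), and its rank by level per kb went from 1 to 3. CB1783.t1 (1314 bases) went from 19273, 17417 and 17145 CPM to 8696, 7641 and 7721 CPM. It was 2.24-fold lower (log2 change -1.16, SE 0.080, adjusted p = 6.68e-10) and moved from rank 3 to rank 12.

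CB1470.t1 (1383 bases), named because it held the most reads in each of the 6 LA001-14 libraries, did not pass the test. It stood at 35166, 31347 and 28543 CPM on glucose and at 40162, 34527 and 36054 CPM on methanol, and the groups overlapped. Its log2 change was 0.22 (SE 0.11, edgeR adjusted p = 0.0588). It was called higher in 4 of 15 alternatives, with library totals (adjusted p = 0.0143), with the replicate block (0.0414), without LA001-14 on glucose replicate 1 (0.0165) and without LA001-14 on methanol replicate 2 (0.046). Its share of all counts was 3.52% ± 0.243 on glucose and 3.93% ± 0.177 on methanol (SD, n = 3 each).

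**Figure D2:**
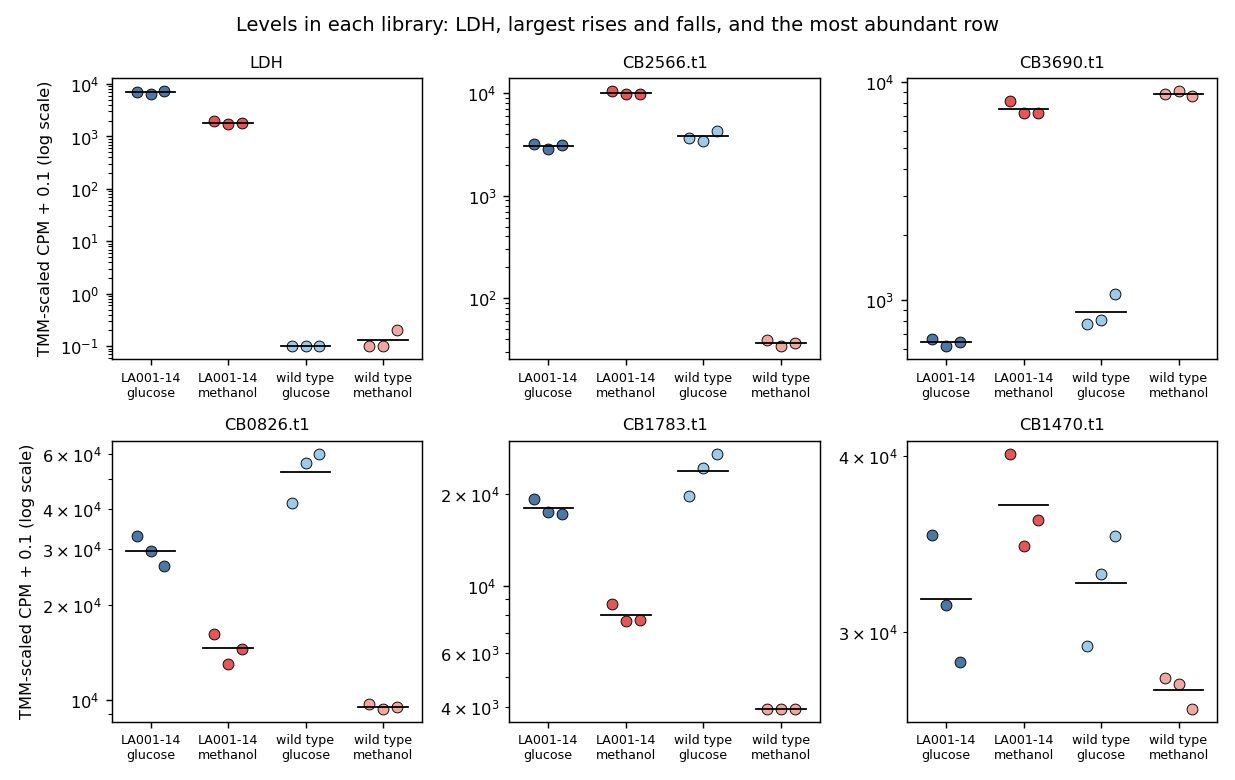
TMM-scaled CPM plus 0.1, on log axes that differ between panels and do not start at 0, in the 3 libraries of each group (points) with the group mean (line), for LDH, the pair with the largest gain in CPM, the pair with the largest loss, and the most abundant row. In LA001-14 the glucose and methanol libraries are separate for LDH, CB2566.t1, CB3690.t1, CB0826.t1 and CB1783.t1 and overlap for CB1470.t1.

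Reads were slightly less concentrated in the 20 and the 100 most abundant rows on methanol, but not in the single most abundant one. The 20 most abundant rows of each library held 23.0%, 22.0% and 21.2% of all reads on glucose and 20.2%, 19.2% and 19.5% on methanol. Every glucose library was above every methanol library, by a difference of means of -2.45 percentage points for methanol (two-sided exact permutation test, p = 0.1, the smallest that 3 against 3 libraries can give). For the 100 most abundant rows the means were 41.6% ± 1.12 on glucose and 38.8% ± 1.03 on methanol (SD, n = 3 each). The lists of 20 rows by mean share had 12 rows in common, and 8 of each list were replaced. Of the 20 on glucose, 12 were called lower on methanol, 3 higher and 5 not called, and 9 fell at least 2-fold. Of the 20 on methanol, 11 were called higher, 4 lower and 5 not called, and 8 rose at least 2-fold. Of all tested genes, 34.7% were called higher and 29.7% lower, and 6.93% rose and 11.3% fell at least 2-fold. In the class of genes with the highest level, 53.8% were called higher and 24.3% lower. The 11 of 20 called higher on the methanol list are near that class. Because the lists were picked on the compared libraries, these counts describe turnover and are no test.

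A near-complete switch was rare. Only 2 genes had at most 3 reads over the glucose libraries and at least 10 in every methanol library, CB2421.t1 and CB4829.t1, which are named because the class is so small. CB2421.t1 (2121 bases) had 1 read in each glucose library and 2361, 1164 and 1144 reads on methanol. The ratio of summed reads, scaled by effective library size, was 1397, and exact 95% limits on the reads put it between 478 and 6776 (edgeR adjusted p = 4.97e-17). CB4829.t1 (954 bases) had 1 read in a single glucose library and 924, 507 and 505 reads on methanol, a ratio of 1738 with an interval of 311 to 68667 (adjusted p = 1.30e-13). That read was in LA001-14 on glucose replicate 2, and without that library the fitted log2 change of CB4829.t1 was 12.14 in place of 10.29. In the other direction, 8 genes had at least 10 reads in every glucose library and at most 3 over the methanol libraries. They were weakly expressed on glucose too, with 48 to 90 reads summed over 3 libraries, and 2 of them had no methanol read. These small classes depended on single libraries: the first held 4 genes without LA001-14 on glucose replicate 1, and the second held 15 without LA001-14 on glucose replicate 3 and 13 without LA001-14 on methanol replicate 1.

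Genes with changes of 8-fold or more in LA001-14 mostly moved the same way in wild type, as did 47.6% of those raised and 46.4% of those lowered by less than 1.5-fold. The wild-type levels come from other libraries, but filter, scaling and spread were estimated over all 12, and in that comparison 70.3% of the genes tested were called, 35.0% higher on methanol and 35.3% lower. Of the 884 genes that rose by less than 1.5-fold in LA001-14, 47.6% rose and 24.2% fell in wild type. Of the 293 that rose 2-fold to 4-fold, 57.0% rose and 22.9% fell there. Of the 86 that rose at least 4-fold, 76 (88.4%) rose in wild type, 6 fell and 4 were not called. The median log2 change of these 86 genes was 2.86 in the LA001-14 fit and 2.91 in the wild-type one. Of 129 genes lowered 4-fold or more in LA001-14, 96 (74.4%) fell in wild type, 13 rose and 20 were not called, with medians of -2.85 and -2.17. Among lowered genes the share that also fell in wild type was 57.1% at 1.5-fold to 2-fold, 70.5% at 2-fold to 4-fold, 65.2% at 4-fold to 8-fold and 79.4% at 8-fold to 16-fold, so it did not climb at every step. At 16-fold and over, 16 of 19 raised genes and 24 of 26 lowered genes kept their direction. LDH, absent from wild type, is counted among the lowered genes and sits in the 2-fold to 4-fold class.

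**Figure D3:**
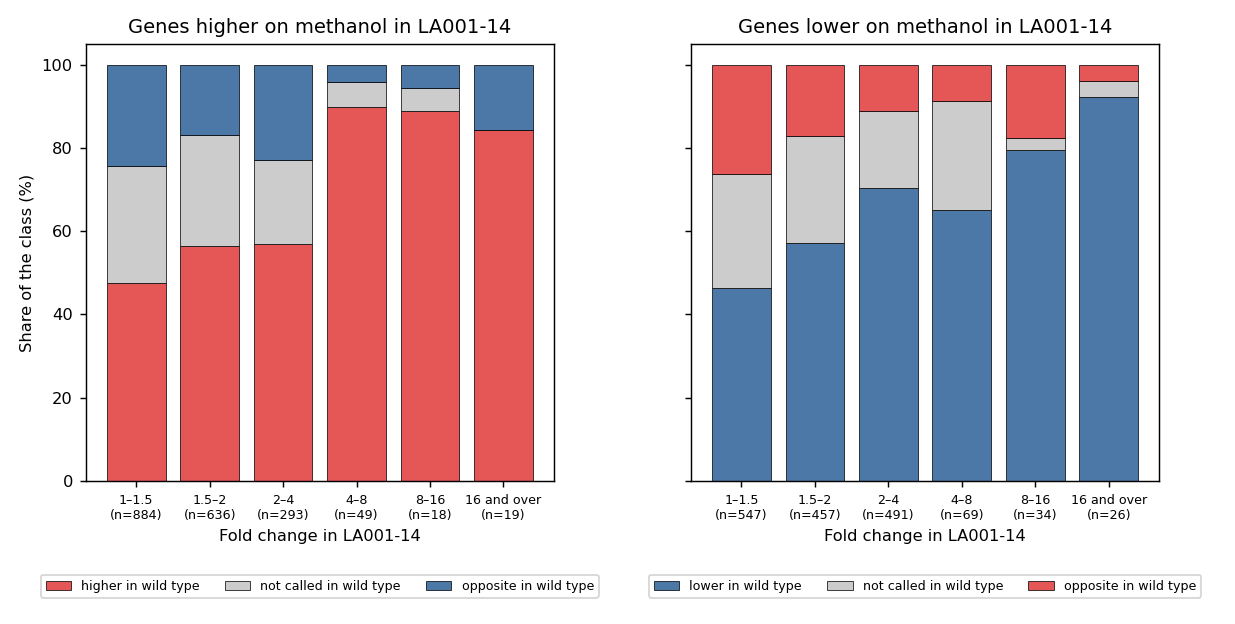
Share of genes (vertical, percent) that were called in the same direction, not called or called in the opposite direction in wild type, by fold change in LA001-14 (horizontal, n under each class), for genes higher (left) and lower (right) on methanol in LA001-14. Agreement in direction is 47.6% in the smallest class of raised genes and 84.2% to 89.8% in the 3 classes from 4-fold upward; among lowered genes it goes from 46.4% to 92.3%, with 70.5% at 2-fold to 4-fold and 65.2% at 4-fold to 8-fold.

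Most genes also responded to methanol differently in LA001-14 than in wild type, by a direct test. This interaction was called for 3206 genes (58.7%), 1681 genes with a higher response in LA001-14 (30.8%) and 1525 with a lower one (27.9%), in edgeR at an adjusted p under 0.05. Calls in the same direction were more common, with 1023 genes higher and 957 lower in both strains. Calls in opposite directions were made for 683 genes: 394 rose in LA001-14 and fell in wild type, and 289 did the reverse. These were 20.7% of the genes raised and 17.8% of those lowered in LA001-14. Of the 394, 214 rose by less than 1.5-fold in LA001-14, and of the 289, 144 fell by less than 1.5-fold. CB2566.t1, the gene with the largest gain in LA001-14, was among the 394. In wild type it went from 3664, 3451 and 4298 CPM on glucose to 38.6, 33.7 and 36.5 CPM on methanol, 105-fold lower (interaction log2 8.43, SE 0.12, adjusted p = 2.99e-23). Its mean on glucose was 3081 CPM in LA001-14 and 3805 CPM in wild type, so the contrast lay in the methanol libraries. CB0100.t1 (1482 bases) had the second largest gain among such genes. It rose in LA001-14 from 3152, 3028 and 3169 CPM to 7288, 6577 and 6776 CPM (log2 change 1.14, SE 0.049, adjusted p = 2.34e-10). In wild type CB0100.t1 fell 64.3-fold, from 4582 ± 449 to 71.3 ± 10.3 CPM (SD, n = 3 each), and its interaction was 7.15 on the log2 scale (SE 0.16, adjusted p = 6.98e-22).

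The 2 genes with the largest loss in LA001-14 among those that rose in wild type were CB2297.t1 and CB0970.t1. Like CB2566.t1 and CB0100.t1 above, they were picked among genes called in the interaction, so passing that threshold was set by the choice. CB2297.t1 (1470 bases) stood at 5144, 4798 and 4923 CPM on glucose and at 2919, 2652 and 2567 CPM on methanol in LA001-14, a log2 change of -0.87 (SE 0.063, edgeR adjusted p = 1.19e-08). In wild type it rose 1.60-fold, from 3092 ± 380.5 to 4954 ± 293 CPM (SD, n = 3 each; interaction log2 -1.55, SE 0.13, adjusted p = 2.91e-10). CB0970.t1 (1602 bases) fell 7.01-fold in LA001-14, from 2008, 1935 and 1860 CPM to 282, 280.5 and 266 CPM (log2 change -2.81, SE 0.042, adjusted p = 1.31e-18). In wild type it rose 27.1-fold, from 73.1 ± 8.35 to 1981 ± 58.6 CPM (SD, n = 3 each; interaction log2 -7.57, SE 0.11, adjusted p = 1.80e-23). Its mean in LA001-14 on glucose, 1934 CPM, was near the 1981 CPM of wild type on methanol.

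**Figure D4:**
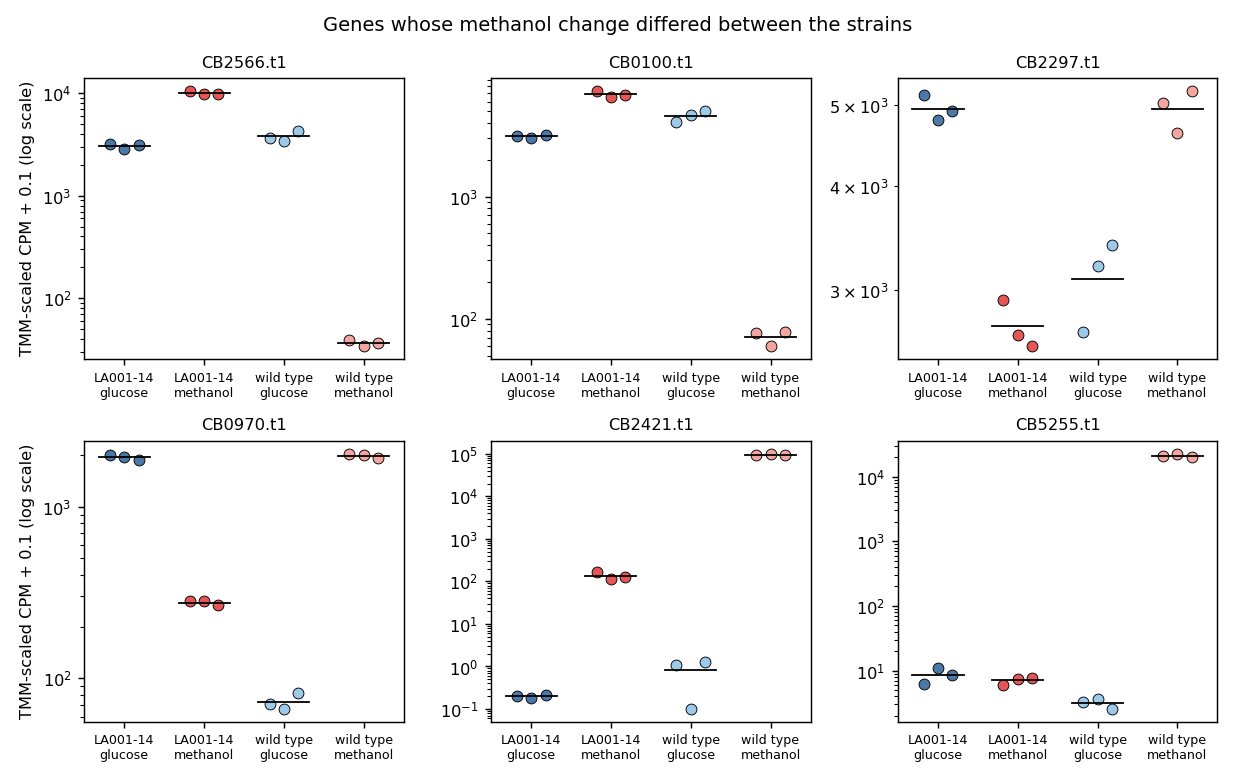
TMM-scaled CPM plus 0.1, on log axes that differ between panels and do not start at 0, in the 3 libraries of each group (points) with the group mean (line). CB2566.t1 and CB0100.t1 rose in LA001-14 and fell in wild type, CB2297.t1 and CB0970.t1 did the reverse, and CB2421.t1 and CB5255.t1 reached far lower levels on methanol in LA001-14 than in wild type.

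Among the other genes named above, CB3690.t1 rose by 3.33 on the log2 scale in wild type, and its interaction of 0.23 (SE 0.16) did not pass the test (edgeR adjusted p = 0.158). It was called in 2 of 19 alternatives, with library totals (adjusted p = 0.0158) and without wild type on glucose replicate 1 (0.0443). CB0826.t1 and CB1783.t1 fell in both strains, by less in LA001-14. CB0826.t1 fell 5.53-fold in wild type (interaction log2 1.44, SE 0.20, adjusted p = 8.65e-08) and CB1783.t1 fell 6.04-fold there (interaction log2 1.43, SE 0.16, adjusted p = 8.55e-09). CB1470.t1, not called in LA001-14, fell slightly in wild type (log2 change -0.25, adjusted p = 0.0289; interaction 0.47, adjusted p = 0.00649). Of the 8 genes that nearly lost their reads on methanol in LA001-14, 7 also fell in wild type (35.3% of all tested genes did), and 4 had an interaction past the threshold (58.7% of all).

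The transcripts that dominate wild type on methanol were mostly raised on methanol in LA001-14, and several of them were far lower on methanol in LA001-14 than in wild type. The 20 rows with the highest mean CPM in wild type on methanol were picked on the wild-type methanol libraries, with a scaling shared by all 12. In LA001-14, 14 of them rose, 4 fell and 2 were not called, against 34.7% higher and 29.7% lower over all genes and 53.8% and 24.3% in the class of genes with the highest level. Their median log2 change in LA001-14 was 1.05, against 0.05 for all tested genes. Together they held 11.1%, 10.5% and 10.1% of the LA001-14 counts on glucose and 12.7%, 11.9% and 12.2% on methanol (two-sided exact permutation test, p = 0.1, the smallest possible). The difference of means was 1.69 percentage points from counts and 0.919 from the authors' FPKM. In wild type the same rows went from 12.9% ± 0.732 to 28.0% ± 0.417 of the counts (SD, n = 3 each), a rise that the choice of rows favours.

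These 20 rows fell into a group of 8 that were at least 16-fold higher on methanol in wild type and a group of 12 that were not. Of the 8, 6 rose in LA001-14 (34.7% of all tested genes did), 1 fell (29.7% of all) and 1 was not called. In LA001-14, 4 of the 8 rose at least 16-fold, as did 19 of the 5466 tested genes. Their median change in LA001-14 was 3.52 on the log2 scale, compared with 10.64 for wild type. On methanol they reached between 6.93 and 1934 CPM in LA001-14 and between 6829 and 96288 CPM in wild type, and 7 of the 8 were more than 8-fold below the wild-type level in LA001-14. The interaction was called lower for 7 of the 8 (27.9% of all tested genes). Picking these rows for their level and rise in wild type favours this count and the differences in level and median change just given. For the other 12, the ratio of the wild-type to the LA001-14 methanol level lay between 0.655 and 4.46. CB2421.t1 belongs to the 8: it reached 163, 115 and 127 CPM on methanol in LA001-14 and 94071, 99668 and 95124 CPM in wild type (interaction log2 -6.71, SE 0.91, edgeR adjusted p = 0.00667). On glucose CB2421.t1 had 3 reads over the LA001-14 libraries and 22 over those of wild type, so this interaction rests on few glucose reads. CB5255.t1 (1992 bases), singled out after its values were seen as the 1 of the 8 that was not called, stood at 6.12, 10.9 and 8.44 CPM on glucose and 5.93, 7.32 and 7.56 CPM on methanol in LA001-14. Those groups overlapped (log2 change -0.33, SE 0.26, adjusted p = 0.105). CB5255.t1 was called lower in 3 of 15 alternatives, with library totals (adjusted p = 0.0468), DESeq2 (0.0289) and without LA001-14 on glucose replicate 1 (0.0109). On methanol in wild type CB5255.t1 stood at 20710, 22435 and 20257 CPM. The row of rank 3 in wild type on methanol (1128 bases) rose from 3.80 ± 0.235 to 1189 ± 73.2 CPM in LA001-14 (SD, n = 3 each), a log2 change of 8.29 (SE 0.071, adjusted p = 1.03e-11), and its interaction of 0.79 did not pass the test (adjusted p = 0.0777). That interaction was called in 5 of 19 alternatives, with library totals (adjusted p = 0.0216), DESeq2 (0.0448) and without wild type on glucose replicate 1 (0.0379), 2 (0.014) or 3 (0.0321), and was 0.41 without the last of these. In wild type the row of rank 3 rose from 123 ± 49.4 to 22189 ± 876 CPM (SD, n = 3 each), so its level was lower in LA001-14 on both media. The row of rank 5 (1095 bases) rose 19.5-fold in LA001-14, to 232 ± 30.2 CPM, and stood at 18149 ± 584 CPM in wild type (SD, n = 3 each; interaction log2 -7.85, SE 0.27, adjusted p = 2.16e-18).

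**Figure D5:**
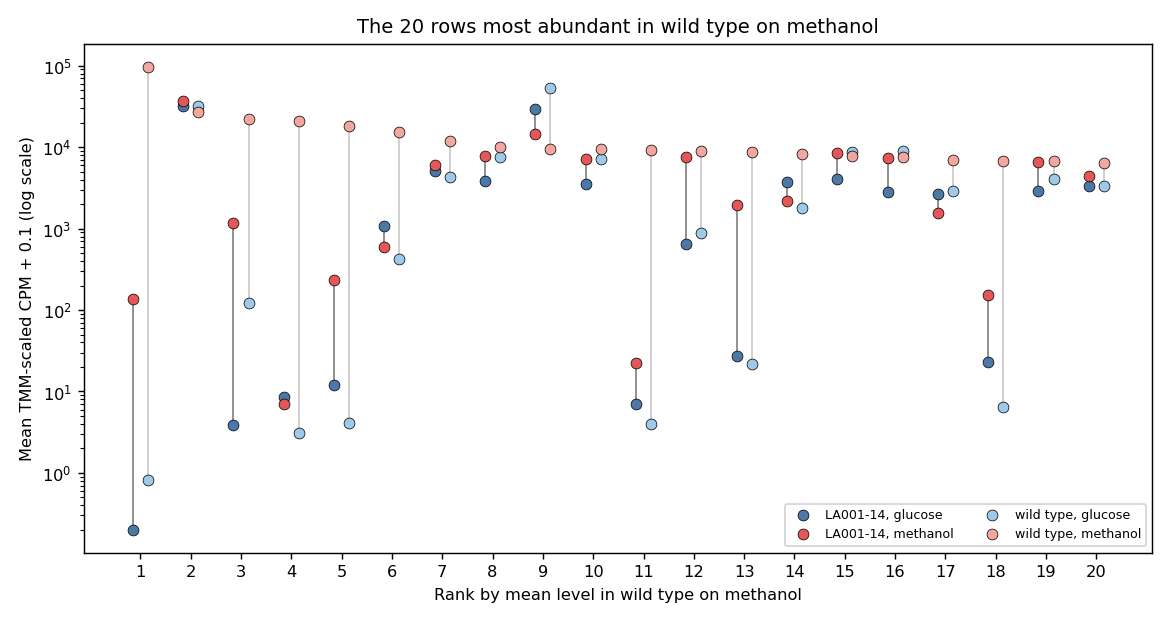
Mean TMM-scaled CPM plus 0.1 over 3 libraries per group (vertical, log axis that does not start at 0) of the 20 rows most abundant in wild type on methanol, ordered by that level (horizontal), with lines joining glucose to methanol within a strain. For ranks 1, 3, 4, 5, 6, 11 and 18 the methanol level of LA001-14 is more than 8-fold below that of wild type, while for the other ranks the wild-type level is 0.655 to 4.57 times that of LA001-14.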

How the data were processed

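The authors deposited 1 table per library, with a coding length, a raw count and an FPKM value in each of 5712 rows, per the file headers. Counts are whole, unnormalized reads per coding sequence, as the authors deposited them. The authors' FPKM is the count over coding length and column total, to within 2.4e-06 percent. The submitters' processing notes name Bowtie2 2.5.4. For the counter, strand setting, build and annotation the entry is "not given in the sources used here".

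After filterByExpr (246 rows removed) and TMM scaling, edgeR 4.0.16 (R 4.3.3) fitted group means to all 12 libraries by quasi-likelihood, with Benjamini-Hochberg adjustment over 5466 genes. The biological coefficient of variation was 0.0938. Each SE is that of replicate log2 CPM after adding 2 reads. Alternatives were other scalings, filters, DESeq2 1.42.0, the LA001-14 libraries alone, a replicate block and leaving out libraries.

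Named genes are LDH, and the 2 with the largest rise and the 2 with the largest fall in mean CPM in LA001-14. The same choice was made among genes called in the interaction and called in opposite directions in the strains. That the interaction of these genes passed the threshold was therefore set by the choice. All these genes have a mean of at least 50 counts and no overlap between replicates. Other named genes are marked as such. Members and gene groups were chosen with earlier results of these data known. Intervals on reads cover counting error only.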

Additional observations from a re-analysis of the deposited data

Results flagged for a closer look

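The methanol response differed between LA001-14 and wild type by a test of the difference itself (edgeR interaction, adjusted p under 0.05), with 1681 genes higher and 1525 lower in LA001-14. Which of these directions held more genes depended on the processing. There were 1601 higher and 1622 lower by RLE, and 1616 and 1636 by DESeq2. By upper quartile the counts were 1849 and 1358, and by library totals 1752 and 1323. Among the genes named in the report, the interaction on the log2 scale was 8.43 for CB2566.t1, 7.15 for CB0100.t1, 1.44 for CB0826.t1, 1.43 for CB1783.t1 and 0.47 for CB1470.t1. It was -1.55 for CB2297.t1, -7.57 for CB0970.t1, -6.71 for CB2421.t1, -13.09 for CB5255.t1 and -7.85 for the row of rank 5 in wild type on methanol. For CB4829.t1 it was 2.93 with an adjusted p of 0.0487 in edgeR, which missed the threshold in 10 of 19 alternatives, with values between 0.0505 and 0.169 in those, and moved to 4.79 without LA001-14 on glucose replicate 2. CB4829.t1 also rose in wild type (log2 change 7.36), to a mean of 125 CPM on methanol against 56.6 CPM in LA001-14. Its glucose levels rest on 22 reads over the wild-type libraries and 1 read over those of LA001-14.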

How the results depend on the processing

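For single genes, 433 of 457 recomputed changes and interactions kept their direction and side of the threshold, and the other 24 kept their direction only. Of 110 recomputed counts of genes, 105 stayed within 1.5 times the reported count, and 16 of 18 shares moved by less than 1 SD. The excess of higher over lower calls is not among these: it turned with RLE (1737 higher, 1742 lower), upper quartile (1729, 1748), library totals (1643, 1729), DESeq2 (1746, 1758), the LA001-14 libraries alone (1693, 1796) and the 1.5-fold test; the cause was not tested. A test against a 1.5-fold change called 600 genes higher and 717 lower, fewer by its construction. From the authors' FPKM, the methanol minus glucose difference was -3.59 percentage points for the 20 most abundant rows and 0.919 for the 20 rows abundant in wild type on methanol, against -2.45 and 1.69 from counts; the cause was not tested. Leaving out a library gave 1763 to 1866 genes higher and 1476 to 1591 lower. Over the 15 alternatives, 321 to 413 genes were at least 2-fold higher and 522 to 670 lower, and the log2 change of LDH stayed between -2.00 and -1.88. Same-numbered libraries of both media had correlated deviations above 0.1 in 1 of 3 pairs (0.123, 0.0777 and 0.0267), so the numbers were not taken as pairs. With the replicate block, 1895 genes were higher and 1608 lower; beside the call of CB1470.t1 given above, it changed no other call, in either contrast, of the genes recomputed (LDH and the CB identifiers named in the report, with the rows of rank 3 and 5). With 3 libraries a side, the exact permutation test of the shares cannot give a p below 0.1. The alternatives for rows abundant in wild type (CB5255.t1 and ranks 3 and 5 included) and for nearly silent genes were chosen after seeing the data.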

Other observations

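The longest series of consecutive identifiers in which every gene changed at least 2-fold in the same direction in LA001-14 ran from CB3482.t1 to CB3488.t1, and it was looked for after the data were seen. All 7 genes fell on methanol, with log2 changes between -4.12 and -1.77 (edgeR, adjusted p under 0.05 for each). Their mean levels lay between 7.94 and 534.6 CPM on glucose and between 0.433 and 65.8 CPM on methanol, and their coding lengths between 765 and 4323 bases. All 7 also fell in wild type (35.3% of all tested genes did), with log2 changes between -2.82 and -0.73, and the interaction was lower in LA001-14 for 4 of them (27.9% of all). Across genes, the log2 changes in LA001-14 of identifiers 1 number apart had a Pearson correlation of 0.13 (Spearman 0.10, 5271 pairs), against 0.07 for identifiers 2 apart and 0.02 for identifiers 5 apart. Genes are not independent replicates, all pairs share the same 6 libraries, and the files do not say whether consecutive identifiers are neighbours in the genome.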
